A study of Mus musculus and Rattus norvegicus with 12 samples.

Results

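Genomic imprinting leaves a gene expressed mainly from the allele inherited from 1 parent. RNA levels of 40 imprinted genes outside the insulin-like growth factor axis (the axis of Igf2, H19 and Igf2r) were followed across mouse extraembryonic endoderm and embryonic stem lines, with rat lines beside them. The genes were picked by symbol from a list of mouse imprinted genes. All 40 were among the 24411 genes of the mouse count tables, and 30 were among the 17315 genes of the rat tables. By textbook class, 22 are expressed from the paternal allele and 17 from the maternal allele, and Gnas has transcripts of both classes.

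RNA-seq counts came from 12 separately derived blastocyst lines, collected after 2 days of culture. The mouse lines, all of the ICR strain, were pXEN2 (male), pXEN4 and pXEN6 (female), XEN1 (female), XEN2 and XEN5 (male), and the embryonic stem (ES) lines ES2 (male) and ES3 (female). The rat XENP lines were CX1 (male) and MAX8 (female) of the WKY strain and MAX2 (female) and MAX3 (male) of the F344 strain. XEN lines are self-renewing cells of primitive endoderm, from which the endoderm of the yolk sac arises, and ES lines are pluripotent. They were grown on mouse embryo fibroblasts in 20% FBS, pXEN lines in the conditions used for rat XENP lines, and ES lines in 15% FBS with LIF and 2 kinase inhibitors (2i). Cell type and culture therefore changed together, and p-values measure the spread between lines.

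Imprinted genes lie in clusters, each governed by a control region that is methylated on 1 parental chromosome only. In many clusters a long non-coding RNA is made from the chromosome that lacks the methylation. Imprinting is known to be prominent in the placenta and yolk sac, where several of these genes regulate growth and nutrient transport. The counts are totals over both alleles, so they give RNA levels and not which allele was expressed. In bulk samples fewer cells of a type and less RNA per cell cannot be told apart.

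The mouse lines had 2661691 to 3483069 gene counts each and the rat lines 1047535 to 1242937, and 20.7% to 50.1% of the mouse counts fell on Rn45s, the precursor of ribosomal RNA. Primitive endoderm markers summed to 6069 to 8637 CPM (counts scaled to library size) in the pXEN lines, 5410 to 12886 in the XEN lines and 60.4 and 115 in ES2 and ES3. Pluripotency markers summed to 29.9 to 64.6 CPM in the pXEN lines, 3.70 to 6.12 in the XEN lines and 4698 and 4604 in ES2 and ES3. Fibroblast markers summed to 36.4 to 67.1 CPM in the pXEN lines, 424 to 683 in the XEN lines and 14.0 and 12.1 in ES2 and ES3, and 10 of the 16 were at 0 in all pXEN lines, 1 in all XEN lines and 6 in both ES lines. Single genes made up much of these sums. Fbln2 had 58.6, 22.2 and 46.5 CPM in pXEN2, pXEN4 and pXEN6. Lox had 187, 268 and 351 CPM in XEN1, XEN2 and XEN5, and 0 in the pXEN lines. In rat the 16 fibroblast markers, of which 14 were in the table, summed to 2.68 to 4.83 CPM.

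Among the genes called in at least 1 comparison with ES were the maternally expressed non-coding RNAs of the Dlk1-Meg3 cluster, the amino acid transporter Slc38a4 and the hydrolase-fold gene Mest, all lower than in ES, and Sfmbt2 and Gnas, which were higher. The first promoter window that RefSeq lists for 3 of these genes is printed as their sequence context. Meg3 and Sfmbt2 have 2 windows each and Slc38a4 has 3, and counts per gene do not measure single start sites. The windows are on GRCm38.p6, 250 bases before to 50 after the start, on the strand of the gene. Capitals mark TGCCGC or its reverse complement, the hexamer that the imprint-protecting zinc finger protein Zfp57 binds when it is methylated.

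Meg3, chr12:109540746-109541045, plus strand: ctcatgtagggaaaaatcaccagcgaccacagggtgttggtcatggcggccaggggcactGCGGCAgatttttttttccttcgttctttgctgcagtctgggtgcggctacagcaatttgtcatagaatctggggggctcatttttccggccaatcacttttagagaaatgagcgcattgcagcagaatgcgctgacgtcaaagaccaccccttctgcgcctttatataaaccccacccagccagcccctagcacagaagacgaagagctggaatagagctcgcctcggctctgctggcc
Slc38a4, chr15:97055907-97056206, minus strand: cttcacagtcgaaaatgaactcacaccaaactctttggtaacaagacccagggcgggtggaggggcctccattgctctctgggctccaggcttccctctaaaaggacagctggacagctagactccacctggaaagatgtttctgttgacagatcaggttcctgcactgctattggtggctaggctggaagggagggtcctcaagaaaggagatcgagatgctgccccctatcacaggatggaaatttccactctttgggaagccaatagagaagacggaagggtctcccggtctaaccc
Sfmbt2, chr2:10370201-10370500, plus strand: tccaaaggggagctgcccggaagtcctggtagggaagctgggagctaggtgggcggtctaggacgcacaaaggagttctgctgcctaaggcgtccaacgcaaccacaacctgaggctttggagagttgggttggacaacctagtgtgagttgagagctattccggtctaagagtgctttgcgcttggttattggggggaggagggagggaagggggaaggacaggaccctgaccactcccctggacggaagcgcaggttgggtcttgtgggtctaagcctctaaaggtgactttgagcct

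The Meg3 window held 13 CpG dinucleotides and 1 match, the Slc38a4 window 5 CpGs and the Sfmbt2 window 9 CpGs, both with no match in these letters. Windows were found for 34 of the 40 genes. The hexamer, sought on both strands, lay in 11 of their 50 windows (22.0%), against 3813 of all 32851 windows of this length (11.61%). The 11 windows belong to 10 genes, since a pair of nearly coincident Mest windows holds the same matches. The median number of CpGs per window was 12.5 for the 50 windows and 7 for all windows. These are matches of letters and say nothing of binding or methylation in the lines.

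**Figure D1:**
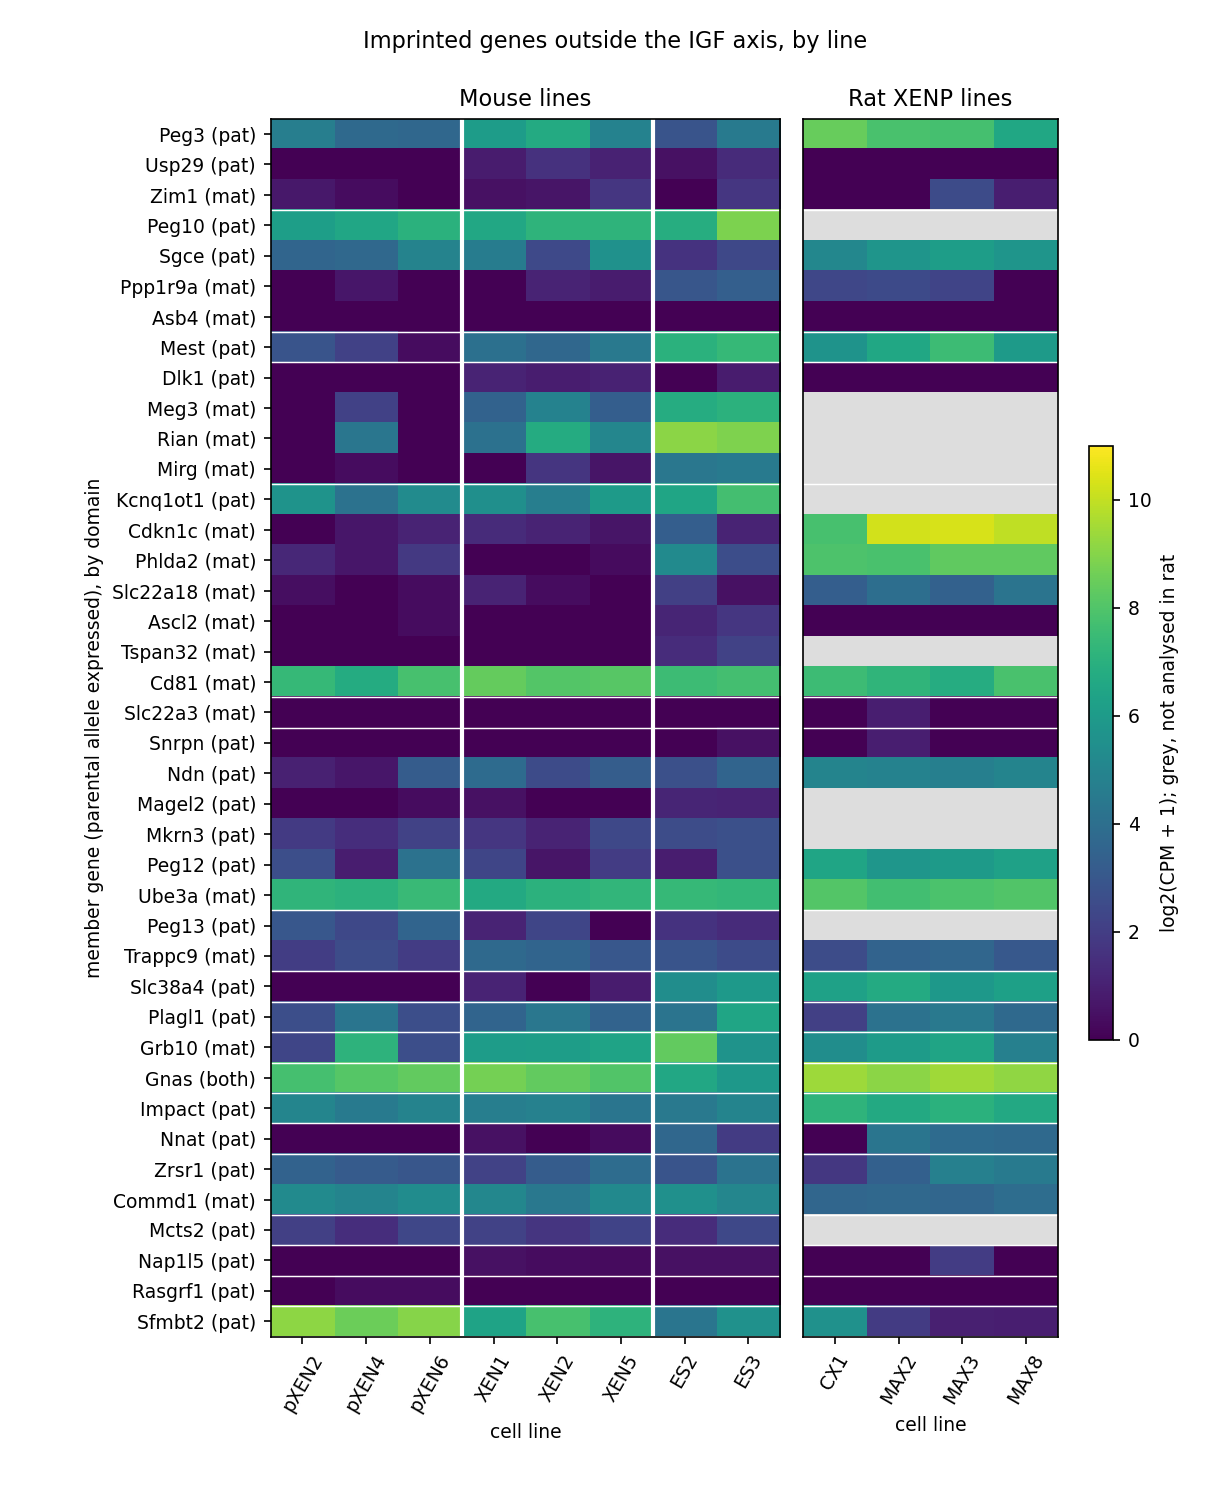
Level of each of the 40 genes in each line, as log2(CPM + 1), with mouse lines on the left and rat XENP lines on the right; rows are grouped by imprinted cluster and marked with the parental allele expressed (pat, mat or both), and genes not analysed in rat are grey. The rows of Meg3, Rian, Mirg, Mest and Slc38a4 are darker in the pXEN and XEN lines than in the ES lines, the Sfmbt2 row is lighter, and the Cdkn1c and Phlda2 rows are lightest in the rat lines.

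Differences were tested in edgeR by quasi-likelihood F-tests, and p-values were adjusted by Benjamini-Hochberg over all 10895 genes tested, and a gene was called at an adjusted p under 0.05. A filter on low counts left 26 of the 40 genes in the tests (15 paternal, 10 maternal and Gnas). In pXEN against ES, 10 were lower and 2 higher, which is 12 of 26, where 35.9% of all genes tested were called (17.8% lower and 18.2% higher). In XEN against ES, 7 were lower and 4 higher, where 38.4% of all genes were called (17.8% lower and 20.7% higher). In pXEN against XEN, 1 was higher and 0 lower, where 4.55% of all genes were called (0.918% higher and 3.63% lower). By unadjusted p, 10 of the 26 were under 0.05 in that comparison, and DESeq2 called 4, of which 3 were lower. Both comparisons with ES use the same 2 ES lines.

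By parental class, 5 of 10 maternally expressed genes were lower in pXEN than in ES and 0 were higher. In XEN 4 of 10 were lower and 0 higher. DESeq2 called none of the maternal genes higher in either comparison, and at an unadjusted p under 0.05 edgeR had 5 in pXEN and 4 in XEN, which are the lower ones. Of 15 paternally expressed genes, 5 were lower and 1 higher in pXEN, and 3 lower and 3 higher in XEN. The median log2 fold change was -2.86 over the maternal and -0.52 over the paternal genes in pXEN against ES, beside -0.03 over all genes. In XEN against ES the medians were -2.15 for maternal and -0.40 for paternal genes, beside 0.00 over all genes. The 10 maternal genes are not independent cases, since Meg3, Rian and Mirg lie in 1 cluster. For some of them (Grb10, Ube3a, Cd81, Commd1, Trappc9 and Ppp1r9a) imprinting is known to depend on tissue. Mirg, Phlda2 and Ppp1r9a, with 11, 16 and 9 counts over the 6 pXEN and XEN lines and 104, 104 and 39 over the 2 ES lines, passed the low-count filter through the ES lines alone, and so did the paternal Slc38a4, with 6 counts against 253. Their direction followed from passing, so these counts and medians describe the genes that passed and are no support for a difference between the classes.

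**Figure D2:**
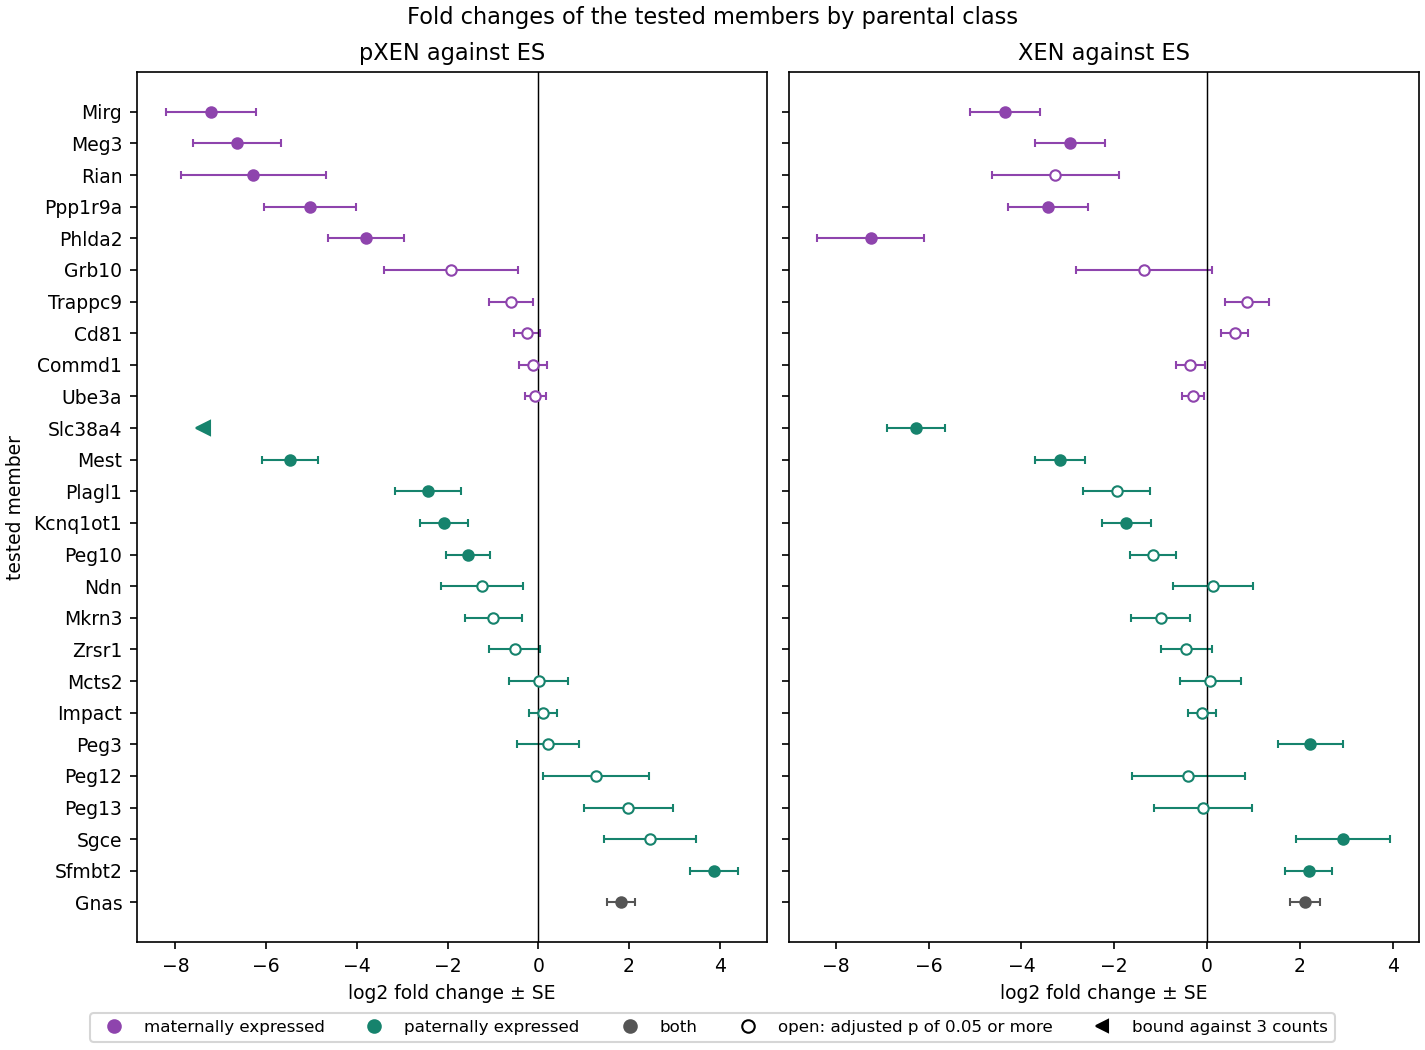
Log2 fold change ± SE of the 26 genes tested, pXEN against ES on the left and XEN against ES on the right, in the order of the pXEN values within a class; colours give the parental class, filled points an adjusted p under 0.05 and the triangle a bound against 3 counts. Fitted points for Mirg and Ppp1r9a in pXEN and for Phlda2 in XEN rest on 1 or 2 counts in that group. Every maternal gene lies left of 0 in pXEN, with Trappc9 and Cd81 right of 0 in XEN, while paternal genes lie on both sides.

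The Dlk1-Meg3 cluster on chromosome 12 carries the paternally expressed Dlk1, a Notch-like transmembrane ligand, and a run of maternally expressed non-coding RNAs: Meg3, then Rian, a host of small nucleolar RNAs, then Mirg, a host of microRNAs. All 3 non-coding RNAs stood far below ES in both kinds of endoderm line, with XEN between pXEN and ES in mean level. Meg3 had 0, 3.42 and 0 CPM in pXEN2, pXEN4 and pXEN6, and 10.1, 28.1 and 8.72 CPM in XEN1, XEN2 and XEN5, against 109.8 and 134 CPM in ES2 and ES3. The 3 groups did not overlap. Meg3 was lower in pXEN by a log2 fold change of -6.64 ± 0.97 (SE, adjusted p = 0.00127) and in XEN by -2.95 ± 0.76 (adjusted p = 0.0165). The XEN call was lost without XEN1 (adjusted p = 0.0532), without the low-count filter (0.066) and with DESeq2 (0.135). It was also lost without ES2 or ES3, at log2 fold changes of -3.08 and -2.80.

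Rian had 0, 18.8 and 0 CPM in the pXEN lines and 16.0, 107 and 32.0 CPM in the XEN lines, against 537 and 467 CPM in ES. pXEN4 lay within the XEN range, and neither group reached ES. In pXEN the difference from ES was called at a log2 fold change of -6.29 ± 1.60 (adjusted p = 0.024). The call was lost without the low-count filter (0.0547) and without ES2 or ES3, at log2 fold changes of -6.17 and -6.36. In XEN the log2 fold change was -3.27 ± 1.37 and not called (adjusted p = 0.109). The XEN difference passed without pXEN4 (adjusted p = 0.0324) and with the XEN and ES lines fitted alone (0.0203).

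Mirg had 0, 0.285 and 0 CPM in pXEN and 0, 2.22 and 0.528 CPM in XEN, against 19.7 and 21.8 CPM in ES. In pXEN this was 1 count in all, a ratio of 209-fold lower than ES with an exact 95% counting interval of 36.7 to 8327 (adjusted p = 0.000275). In XEN the log2 fold change was -4.35 ± 0.76 (adjusted p = 0.00124). Mirg passed the low-count filter through the ES lines alone, so its direction followed from passing. All 12 Meg3 counts, 66 Rian counts and the 1 Mirg count of the pXEN group came from pXEN4, while pXEN2 and pXEN6 had 0 of each. Pluripotency markers summed to 64.6 CPM in pXEN4, against 29.9 to 31.0 in the other pXEN lines. Among them, Pou5f1 had 39.0 CPM in pXEN4, against 10.9 and 18.7 in pXEN2 and pXEN6. Zfp42 had 22.2 CPM in pXEN4, against 17.8 and 8.61. The markers Nanog, Sox2, Esrrb and Tdgf1 had 0 counts in pXEN4. The part of the pluripotency markers in the values of pXEN4 was not tested. Between pXEN and XEN the call for Meg3 depended on this line: adjusted p = 0.08 with it, and 0.00887 without it, when both remaining pXEN lines were at 0. Dlk1 had 0 counts in all pXEN lines, 0.834 to 1.17 CPM in XEN and 0 and 0.779 CPM in ES, below the filter. Meg3, Rian and Dlk1 are also known to be expressed in fibroblasts of the mouse embryo, and the part of the fibroblast markers seen in the XEN lines in these values was not tested.

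The microRNA genes of the stretch that runs over Meg3, Rian and Mirg followed the same order. The table held 60 of them, 38 with any count, and their summed counts were 0, 1 and 0 in pXEN and 2, 11 and 6 in XEN, against 103 and 71 in ES. The libraries were made from fragmented total RNA, so these counts reflect precursor or host RNA over the microRNA genes and not mature microRNAs. Mature sequences of 6 of the most counted are given from RefSeq (GRCm38.p6, plus strand of chromosome 12), with the seed, bases 2 to 8, in capitals. They show what this stretch encodes.

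mmu-miR-432: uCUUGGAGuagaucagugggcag
mmu-miR-3070-5p: aGCCCCUGaccuugaaccuggga
mmu-miR-3070-3p: uGGUGCUAccgucagggguaga
mmu-miR-3070-2-3p: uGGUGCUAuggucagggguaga
mmu-miR-434-5p: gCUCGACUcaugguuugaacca
mmu-miR-434-3p: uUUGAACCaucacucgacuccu
mmu-miR-382-5p: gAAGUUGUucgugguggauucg
mmu-miR-382-3p: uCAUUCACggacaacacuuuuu
mmu-miR-666-5p: aGCGGGCAcagcugugagagcc
mmu-miR-666-3p: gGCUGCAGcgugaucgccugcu

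Mir3070a and Mir3070b give the same 5p sequence, and their 3p arms share the seed GGUGCUA, while the other arms each have a seed of their own. Mir432, the most counted, had 0 counts in pXEN and 3 in XEN, against 26 in ES. Mir3070b had 0 in pXEN and 1 in XEN against 14 in ES, and Mir434 had 0 and 1 against 10. Mir668 had 9 counts in all, as many as Mir3070a and Mir666, and is not printed. Single genes of this size were too sparse to compare on their own.

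**Figure D3:**
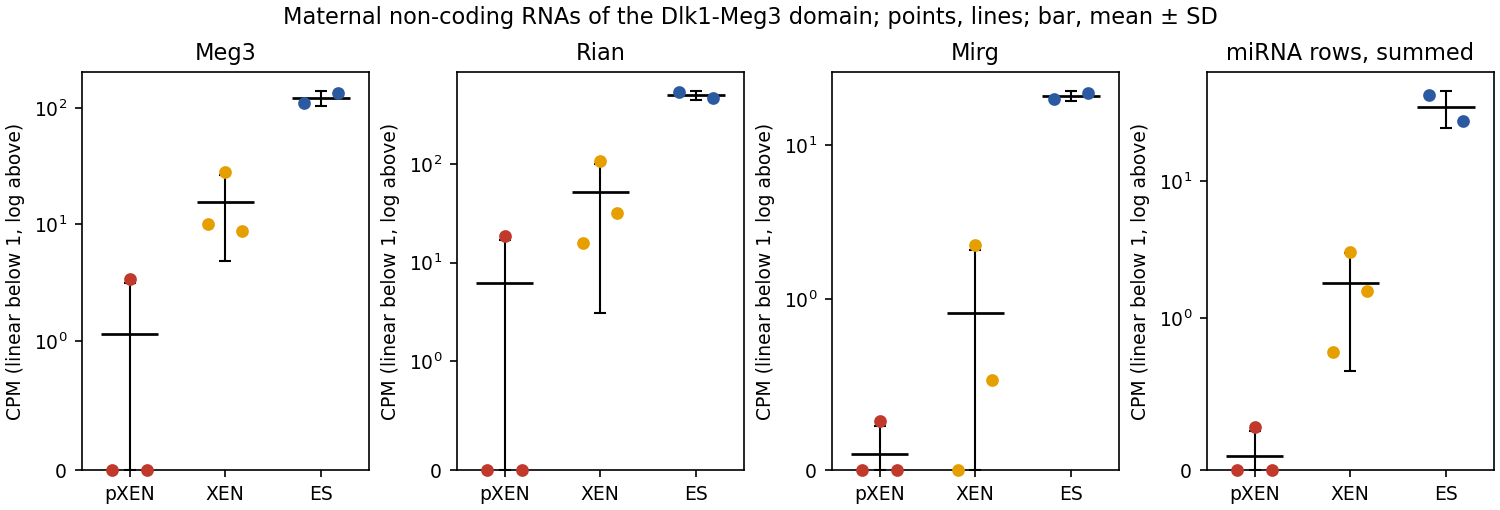
CPM of Meg3, Rian, Mirg and the summed microRNA genes of the same stretch, with 1 point per line, the mean as a bar and the SD as whiskers (whiskers that would pass below 0 stop there); the axis is linear below 1 and logarithmic above. In each panel both ES lines lie above every other line, and in the pXEN group only pXEN4 is above 0.

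Slc38a4 is a paternally expressed transporter of neutral amino acids that is known from placenta and liver. It had 0 counts in all 3 pXEN lines and 1.17, 0 and 0.793 CPM in XEN1, XEN2 and XEN5, against 41.5 and 59.2 CPM in ES2 and ES3. Against a floor of 3 counts over the group it was at least 169-fold lower in pXEN (adjusted p = 4.7e-05). In XEN its log2 fold change was -6.28 ± 0.63 (adjusted p = 0.000116). Both calls held in every alternative run. Slc38a4 passed the low-count filter through the ES lines alone, so its direction followed from passing.

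Mest, a paternally expressed gene for a protein of the alpha/beta hydrolase fold that promotes growth, had 6.25, 3.42 and 0.287 CPM in pXEN and 15.6, 11.7 and 21.1 CPM in XEN, against 129 and 162 CPM in ES. The groups did not overlap. Mest was lower in pXEN by -5.47 ± 0.62 on the log2 scale (adjusted p = 0.000181) and in XEN by -3.17 ± 0.54 (adjusted p = 0.00177). The log2 difference between pXEN and XEN was -2.30 ± 0.59 and was not called (adjusted p = 0.0633). It passed with unstranded counts, with DESeq2, and without pXEN2 or pXEN6 (adjusted p 0.0274, 0.000476, 0.0311 and 0.0359).

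Sfmbt2 encodes a Polycomb protein that is needed for extraembryonic tissue in the mouse, is expressed from the paternal allele, and carries a large microRNA cluster in an intron. It was the member with the greatest rise in pXEN against ES among those called. Sfmbt2 had 551, 374 and 508 CPM in pXEN2, pXEN4 and pXEN6, and 81.8, 223 and 139 CPM in XEN1, XEN2 and XEN5, against 18.1 and 46.8 CPM in ES2 and ES3. The 3 groups did not overlap. Its log2 fold change was 3.88 ± 0.54 in pXEN against ES (adjusted p = 0.000508) and 2.19 ± 0.50 in XEN against ES (adjusted p = 0.0072), which was lost without ES2 (adjusted p = 0.053).

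In pXEN against XEN, Sfmbt2 was higher by 1.69 ± 0.41 on the log2 scale (adjusted p = 0.0476), the 1 called difference among the 26 genes between these groups. It lay at the threshold: the call was lost without pXEN2, pXEN4, pXEN6, XEN1 or XEN5 (highest adjusted p 0.154), without the low-count filter, with Rn45s removed, and with sex as a covariate. DESeq2 gave an adjusted p of 0.000444. The 72 microRNA genes within Sfmbt2, of which 18 had counts, summed to 56, 27 and 66 counts in pXEN and 10, 36 and 20 in XEN, against 9 and 3 in ES. Mir669i had the most, with 40 counts over pXEN and 11 over XEN against 4 over ES. These genes are near-identical copies in an intron on the same strand, so single entries are uncertain and reads of unspliced Sfmbt2 RNA cannot be told apart from them.

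Gnas encodes the stimulatory G protein subunit alpha and has alternative promoters that differ in the parental allele used. It had 218, 274 and 325 CPM in pXEN and 409.9, 326 and 258 CPM in XEN, against 97.0 and 56.5 CPM in ES. The pXEN and XEN ranges overlapped, and both lay above ES. Gnas was higher in pXEN by 1.83 ± 0.31 on the log2 scale (adjusted p = 0.00106) and in XEN by 2.11 ± 0.32 (adjusted p = 0.000517), and both calls held in every alternative run. A count per gene does not separate its promoters.

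**Figure D4:**
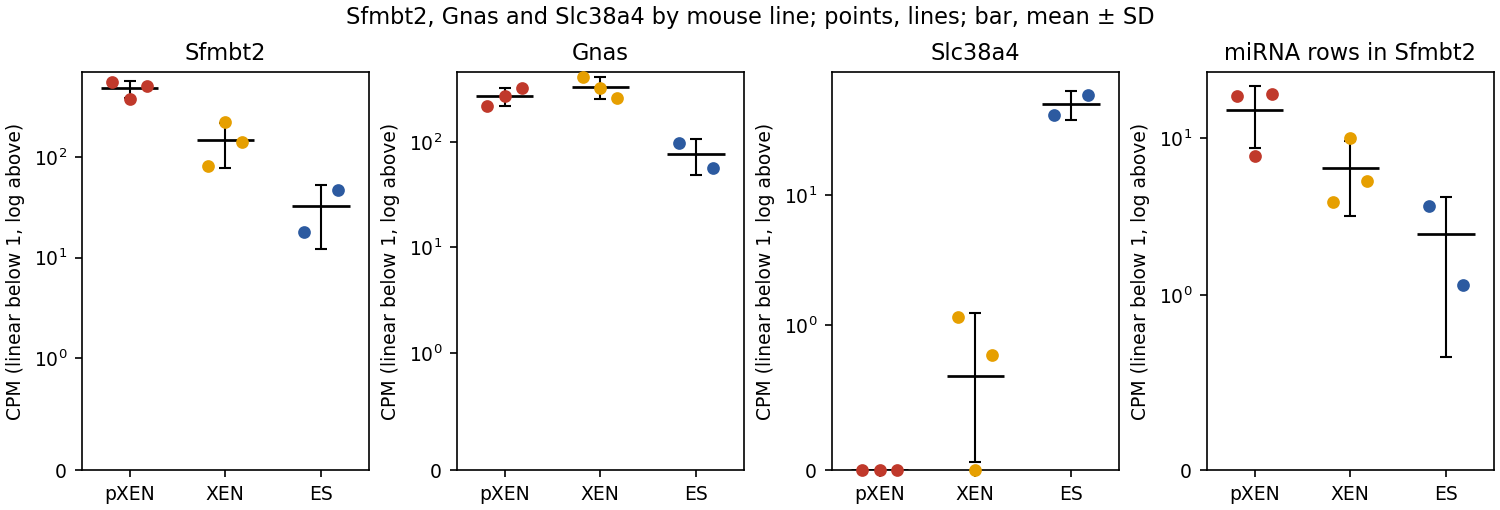
CPM of Sfmbt2, Gnas and Slc38a4 and of the microRNA genes within Sfmbt2, with 1 point per line, the mean as a bar and the SD as whiskers; the axis is linear below 1 and logarithmic above. Sfmbt2 is highest in pXEN and lowest in ES, Gnas overlaps between pXEN and XEN and lies above ES, and Slc38a4 is at 0 in pXEN and between 41.5 and 59.2 CPM in ES.

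The Kcnq1ot1 cluster on chromosome 7 is named after a long non-coding RNA made from the paternal chromosome, which silences its maternally expressed neighbours in cis. Kcnq1ot1 and its neighbour Phlda2 were both lower than in ES. Kcnq1ot1 had 49.4, 16.8 and 38.5 CPM in pXEN and 43.6, 25.0 and 63.1 CPM in XEN, against 87.6 and 206 CPM in ES. Its log2 fold change was -2.08 ± 0.53 in pXEN (adjusted p = 0.0137) and -1.74 ± 0.52 in XEN (adjusted p = 0.0278). Both calls were lost without ES3, the line with the higher value, at log2 fold changes of -1.33 and -0.99. The XEN call was also lost without XEN1 (0.0822) or XEN2 (0.0588), without the low-count filter (0.0653) and with sex as a covariate (0.054).

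Phlda2, a pleckstrin-homology protein that restrains growth of the placenta, had 1.32, 0.569 and 2.58 CPM in pXEN and 0, 0 and 0.264 CPM in XEN, against 37.4 and 5.07 CPM in ES. The ES lines differed widely from each other, and all pXEN and XEN lines lay below both. The pXEN difference was -3.79 ± 0.83 on the log2 scale (adjusted p = 0.00494) and was lost without ES2 (0.269). XEN held 1 count, a ratio of 207-fold lower than ES with a counting interval of 36.3 to 8254 (adjusted p = 0.000832). Phlda2 passed the low-count filter through the ES lines alone, so its direction followed from passing. Cdkn1c, the cell cycle inhibitor p57, stayed below the filter with 0 to 1.15 CPM in pXEN and 0.528 to 1.56 CPM in XEN, against 8.64 and 1.17 CPM in ES.

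Cd81, a tetraspanin at the edge of this cluster, had the highest group mean of the 40 genes per length, with Sfmbt2 within its spread in pXEN. Cd81 had 164, 107 and 224 CPM in pXEN and 339, 262 and 282 CPM in XEN, against 183 and 206 CPM in ES. It was called in none of the 3 comparisons (adjusted p 0.543, 0.129 and 0.113). Between pXEN and XEN it passed with DESeq2 (0.0388) and without pXEN6 (0.043), at log2 differences of -0.83 and -1.12. Slc22a18, a transporter, Ascl2, a trophoblast transcription factor, and Tspan32, a tetraspanin, had at most 1.17 CPM in any pXEN or XEN line and 0.390 to 3.51 CPM in ES.

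The Peg10-Sgce cluster on chromosome 6 pairs Peg10, a retrotransposon-derived gene needed for the placenta, head to head with Sgce, which encodes epsilon-sarcoglycan. Peg10 had 71.7, 88.8 and 129 CPM in pXEN and 94.7, 140 and 142 CPM in XEN, against 116 and 449 CPM in ES. Its call in pXEN (log2 fold change -1.55 ± 0.49, adjusted p = 0.0358) rested on ES3: without that line the log2 fold change was -0.25. The call was also lost without pXEN2, pXEN4 or XEN2 (0.0972, 0.101 and 0.0513). The same held without the low-count filter (0.0807) and with the pXEN and ES lines fitted alone (0.0742). In XEN the log2 fold change was -1.17 ± 0.49 and not called (adjusted p = 0.0896), and it passed with DESeq2 (0.029). Without ES2, whose value lay within the XEN range, it was -1.83.

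Sgce was higher, not lower, in the XEN lines than in ES. It had 11.2, 12.2 and 29.6 CPM in pXEN and 23.4, 4.45 and 46.0 CPM in XEN, against 2.06 and 4.29 CPM in ES. ES2 and ES3 held 5 and 11 counts. Sgce passed the low-count filter through the pXEN and XEN lines, so its higher direction followed in part from passing. The XEN difference of 2.94 ± 1.01 was called by a narrow margin (adjusted p = 0.0488) and was lost without pXEN2, pXEN4, XEN1, XEN5, ES2 or ES3 (highest adjusted p 0.248), with upper-quartile scaling (0.0545), without the low-count filter (0.114), with the XEN and ES lines fitted alone (0.0644) and with sex as a covariate (0.0628). The pXEN difference of 2.46 ± 1.01 was not called (adjusted p = 0.0916), and passed with DESeq2 (0.0119) and without XEN2 (0.0103) or XEN5 (0.0452).

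Ppp1r9a, which encodes the actin-binding phosphatase partner neurabin and is maternally expressed in some tissues, had 0, 0.569 and 0 CPM in pXEN and 0, 1.11 and 0.793 CPM in XEN, against 6.58 and 8.96 CPM in ES. The 2 pXEN counts gave a ratio of 39.2-fold lower than ES with a counting interval of 10.1 to 335 (adjusted p = 0.00271). In XEN the log2 fold change was -3.43 ± 0.86 (adjusted p = 0.00936), lost without ES3 (0.0773). Ppp1r9a passed the low-count filter through the ES lines alone, so its direction followed from passing. Asb4, the next gene of the cluster, had 0 counts in all 8 mouse lines.

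Peg3, a zinc finger protein expressed from the paternal allele, was higher in XEN than in ES. It had 25.3, 12.5 and 11.8 CPM in pXEN and 66.2, 106 and 28.0 CPM in XEN, against 6.17 and 22.2 CPM in ES. All XEN lines lay above all other mouse lines, while pXEN and ES overlapped. The XEN difference from ES was 2.23 ± 0.70 on the log2 scale (adjusted p = 0.0337), and was lost without pXEN4, XEN1, XEN2 or ES2 (highest adjusted p 0.178), without the low-count filter (0.0794), with the XEN and ES lines fitted alone (0.0506) and with sex as a covariate (0.0621). The pXEN difference was 0.21 ± 0.68 (adjusted p = 0.842).

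The test of pXEN against XEN for Peg3 gave -2.02 ± 0.58 and was not called (adjusted p = 0.111), though it passed with DESeq2 (0.00537) and without XEN5 (0.0355). Fibroblast markers were high in the same lines, with summed levels of 424, 503 and 683 CPM in XEN1, XEN2 and XEN5, against 12.1 to 67.1 CPM in the pXEN and ES lines. Their part in the Peg3 and Sgce values was not tested. Usp29, a ubiquitin protease gene whose promoter window shares 263 bases with that of Peg3 on the other strand, had 0 counts in pXEN, 0.779 to 1.95 CPM in XEN and 0.411 and 1.56 CPM in ES. Zim1, a maternally expressed zinc finger gene of the cluster, reached at most 2.38 CPM.

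Plagl1, a paternally expressed zinc finger regulator of other imprinted genes, had 5.26, 18.5 and 5.17 CPM in pXEN and 10.5, 19.7 and 10.3 CPM in XEN, against 17.7 and 87.3 CPM in ES. The groups overlapped. The call in pXEN (-2.43 ± 0.74, adjusted p = 0.0306) was lost without ES3, at -0.85, and without pXEN2, pXEN6 or XEN1 (0.0857, 0.0842 and 0.0526). It was also lost without the low-count filter (0.0926) and with the pXEN and ES lines fitted alone (0.0702). The XEN difference of -1.95 ± 0.72 was not called (adjusted p = 0.0618). It passed without pXEN4 (0.0276), with DESeq2 (0.0149), with upper-quartile scaling (0.0482) and with the XEN and ES lines fitted alone (0.046). Without ES2 it was -2.67.

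Grb10, an adaptor that restrains insulin receptor signalling, varied widely between lines of 1 group. It had 3.95, 137 and 5.17 CPM in pXEN2, pXEN4 and pXEN6 and 67.0, 69.5 and 82.4 CPM in XEN, against 324 and 49.5 CPM in ES2 and ES3. The high pXEN line was again pXEN4, the line with the Meg3, Rian and Mirg counts. With all lines the pXEN difference from ES was -1.93 ± 1.48 (adjusted p = 0.356), and without pXEN4 it was -5.34 (adjusted p = 0.00605). These are observations on 1 line, and pXEN4 shares its sex with pXEN6.

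The cluster of Snrpn on chromosome 7 also holds Ube3a, a ubiquitin ligase that is imprinted in neurons. Ube3a had 144, 134 and 177 CPM in pXEN and 101, 134 and 148 CPM in XEN, against 164 and 153 CPM in ES, with log2 fold changes of -0.06 ± 0.23 (adjusted p = 0.859) and -0.31 ± 0.23 (adjusted p = 0.323). Ndn, a MAGE family growth suppressor, averaged 3.29 ± 4.36 CPM in pXEN and 8.81 ± 4.27 in XEN, against 7.93 ± 3.66 in ES (SD). It was not called, but without pXEN6 it was lower in pXEN than in ES by -3.31 (adjusted p = 0.00795) and than in XEN by -3.44 (adjusted p = 0.0282).

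Mkrn3, a makorin ring finger gene, and Peg12, a relative of the Gsk3-binding Frat genes, averaged 2.45 to 7.68 CPM in every mouse group and were not called. Magel2 had at most 1.23 CPM in any line. Snrpn, a spliceosome gene, had 1 count in all 8 mouse lines. It shares exons with Snurf, so reads over both genes may have been assigned to neither, and this value is no measure of its RNA.

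Of the remaining genes with a mean of at least 10 CPM in some mouse group, none was called. Impact, a regulator of the kinase Gcn2, had 30.9, 21.9 and 29.0 CPM in pXEN and 24.9, 27.8 and 18.2 CPM in XEN, against 20.6 and 30.4 CPM in ES. Commd1, a copper homeostasis gene, had 37.2, 29.9 and 39.6 CPM in pXEN and 33.1, 20.3 and 36.7 CPM in XEN, against 44.8 and 32.3 CPM in ES. Zrsr1, an intronless splicing factor gene inside Commd1, had 9.87, 7.97 and 6.60 CPM in pXEN and 3.51, 8.06 and 13.7 CPM in XEN, against 6.17 and 17.1 CPM in ES. For these genes the groups overlapped in both comparisons.

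Trappc9, a subunit of a vesicle-tethering complex, averaged 3.56 ± 1.11 CPM in pXEN and 9.97 ± 2.85 in XEN, against 5.42 ± 1.05 in ES. Peg13, a non-coding RNA in a Trappc9 intron, averaged 7.27 ± 3.19 CPM in pXEN and 1.69 ± 2.00 in XEN, against 1.81 ± 0.351 in ES. Neither was called in any comparison. The nearest was Trappc9 in pXEN against XEN, at -1.46 ± 0.42 (adjusted p = 0.0801). All pXEN lines lay above all XEN and ES lines for Peg13, though pXEN4 had 15 counts and XEN2 had 14. In pXEN against ES, Peg13 passed with these groups fitted alone (log2 fold change 1.97, adjusted p = 0.0333). The pXEN lines held 73 counts and the ES lines 9. In that fit Peg13 passed the low-count filter through the pXEN lines alone, so its direction followed from passing. Peg13 lies on the same strand as Trappc9, and unspliced Trappc9 reads cannot be told apart from it. Zrsr1 and Mcts2 are retro-copies, so reads shared with their parent genes make their counts uncertain.

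The 14 genes below the filter had at most 11.9 CPM in any mouse line, a value of the proteolipid gene Nnat in ES2. Asb4 and the organic cation transporter Slc22a3 had 0 counts in all 8 lines. Nap1l5 had at most 0.411 CPM, and the exchange factor Rasgrf1 had 2 counts in all, both in pXEN. A count of 0 over a group allows up to 0.299 CPM for the pXEN lines, 0.302 for the XEN lines and 0.600 for the ES lines.

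Per kilobase of merged exons, Cd81 led in each mouse group, with 57.3 ± 20.4 CPM per kilobase in pXEN, 102 ± 13.9 in XEN and 67.7 ± 5.59 in ES. In pXEN it was followed by Sfmbt2 (52.3 ± 10.2), within its spread, and then Gnas (24.3 ± 4.77) and Peg10 (14.5 ± 4.42). In XEN it was followed by Gnas (29.6 ± 6.80), Peg10 (18.8 ± 4.01) and Sfmbt2 (16.2 ± 7.76), of which Peg10 and Sfmbt2 were within their spread. In ES the next were Peg10 (42.3 ± 35.3), Mest (36.9 ± 5.92) and Rian (27.5 ± 2.75), and the spread of Peg10 covered the other two. Mest and Rian had 0.841 ± 0.756 and 0.344 ± 0.595 in pXEN, and 4.09 ± 1.20 and 2.83 ± 2.67 in XEN.

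A second list held 42 other imprinted genes, and 24 of its 41 genes in the mouse table were tested. In pXEN against ES 9 were lower and 2 higher, in XEN against ES 5 were lower and 4 higher, and in pXEN against XEN 2 were lower and 1 higher, where 35.9%, 38.4% and 4.55% of all genes were called in either direction. The smallest adjusted p in both comparisons with ES was that of Zdbf2, a paternally expressed zinc finger gene. Zdbf2 had 0 counts in all pXEN lines and 0.264 to 0.834 CPM in XEN, against 66.6 and 92.8 CPM in ES, which was at least 268-fold lower in pXEN (adjusted p = 5.6e-06). In XEN it was lower by -6.95 ± 0.45 on the log2 scale (adjusted p = 9.4e-06). With 6 counts over the XEN lines and 400 over the ES lines, Zdbf2 passed the low-count filter through the ES lines alone. Its direction followed from passing, and the lower genes counted in both comparisons with ES include it.

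H13, a signal peptide peptidase gene with Mcts2 in an intron, averaged 123 ± 24.8 CPM in pXEN and 152 ± 35.8 in XEN, against 27.5 ± 4.15 in ES. It was higher by 2.16 ± 0.30 in pXEN (adjusted p = 0.000268) and 2.46 ± 0.30 in XEN (adjusted p = 0.000142). Mcts2 itself averaged 3.01 ± 1.18 CPM in pXEN and 3.14 ± 0.802 in XEN, against 2.97 ± 1.87 in ES, and its log2 fold changes were 0.01 ± 0.66 and 0.07 ± 0.65. Airn, the paternally expressed non-coding RNA of the cluster that holds Slc22a3, had 3.95, 2.85 and 2.01 CPM in pXEN and 9.74, 6.95 and 4.76 CPM in XEN, with 0 counts in both ES lines. Set against a floor of 3 counts over ES, pXEN exceeded ES at least 4.81-fold (adjusted p = 0.00496), and XEN exceeded ES at least 11.4-fold (adjusted p = 0.00114). With 0 counts in ES, Airn passed the low-count filter through the pXEN and XEN lines alone, so its direction followed from passing. Igf2 had 0 counts in all pXEN lines and 101, 43.7 and 80.8 CPM in XEN, against 10.3 and 4.29 CPM in ES. It was at least 243-fold lower in pXEN than in XEN (adjusted p = 0.000248). Fibroblast markers summed to 36.4 to 67.1 CPM in the pXEN lines and 424 to 683 CPM in the XEN lines, and their part in the Igf2 values was not tested.

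Imprints are set, kept, read or removed by many factors: Zfp57 and Trim28, which bind and silence the methylated allele, DNA methyltransferases, which add methylation, and Tet enzymes, which oxidise methylated cytosine and promote its removal. The list of 28 regulators also held general chromatin genes, such as the Polycomb genes Eed, Ezh2 and Suz12. Of these 28, 27 were tested. In pXEN against ES 12 were lower and 2 higher, where 17.8% of all genes were lower and 18.2% higher. In XEN against ES 14 were lower and 2 higher, where 17.8% of all genes were lower and 20.7% higher. The lower genes counted in both comparisons include Dppa3, with 0 counts in all pXEN and XEN lines and 47 over the ES lines. Dppa3 passed the low-count filter through the ES lines alone, so its direction followed from passing. Both of its calls were lost with DESeq2. Zfp57 had 2.96, 5.41 and 4.88 CPM in pXEN and 3.51, 5.84 and 5.28 CPM in XEN, against 79.0 and 80.3 CPM in ES. Its log2 fold change was -4.15 ± 0.33 in pXEN (adjusted p = 7.2e-06) and -4.00 ± 0.32 in XEN (adjusted p = 9.6e-06).

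Trim28 averaged 227 ± 46.3 CPM in pXEN and 199 ± 15.7 in XEN, against 676 ± 112 in ES, which was lower by -1.58 ± 0.22 (adjusted p = 0.000331) and -1.76 ± 0.22 (adjusted p = 0.000182). Tet1 averaged 12.4 ± 4.50 CPM in pXEN and 14.6 ± 1.45 in XEN, against 335 ± 21.0 in ES (adjusted p 3.3e-06 and 3.5e-06). Tet3 was higher in both, with 29.8 ± 4.63 CPM in pXEN and 45.5 ± 2.86 in XEN, against 8.69 ± 5.90 in ES. Its log2 fold change was 1.76 ± 0.39 in pXEN (adjusted p = 0.00453) and 2.38 ± 0.39 in XEN (adjusted p = 0.000894).

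Dnmt3l, a cofactor of the de novo methyltransferases, was the 1 of 27 regulators called between pXEN and XEN, where 4.55% of all genes were called. It had 55.3, 168 and 22.7 CPM in pXEN, against 0, 1.11 and 0.264 CPM in XEN, a log2 difference of 7.25 ± 1.11 (adjusted p = 0.0117) that was lost without XEN1 (0.0618) and without the low-count filter. The ES lines had 364 and 206 CPM. In the pXEN group the highest line was again pXEN4. Whether levels of these regulators bear on the imprinted genes was not tested.

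In the rat XENP lines 30 of the 40 genes were measured, and 10 (Peg10, Meg3, Rian, Mirg, Kcnq1ot1, Tspan32, Magel2, Mkrn3, Peg13 and Mcts2) were not analysed. Species, build and annotation change together, and Rn45s takes a large share of mouse counts only, so rat and mouse CPM are not on 1 scale and were not tested against each other. Cdkn1c had 224, 1211, 1284 and 981 CPM in CX1, MAX2, MAX3 and MAX8, beside at most 1.56 CPM in any pXEN or XEN line. Phlda2 had 239, 228, 319 and 316 CPM in the same rat lines, beside at most 2.58 CPM in pXEN and XEN. Both are maternally expressed growth restrainers of 1 cluster in the mouse.

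Slc38a4 had 77.2, 106, 57.3 and 74.1 CPM in the rat lines, beside at most 1.17 CPM in any pXEN or XEN line. Mest had 49.9, 93.3, 187 and 62.5 CPM, and Peg3 had 344.3, 226, 215 and 92.9 CPM. Some genes called in none of the mouse comparisons were also present in rat: Ube3a averaged 241 ± 27.5 CPM (SD, n = 4), Cd81 168 ± 50.2 and Impact 118 ± 20.9. Gnas averaged 621 ± 65.3 CPM and Grb10 54.8 ± 26.2 CPM. Sgce averaged 51.3 ± 14.2 CPM, Ndn 28.8 ± 2.22 and Peg12 70.0 ± 15.2.

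Sfmbt2, the gene that stood highest in the mouse pXEN lines, had 46.7 CPM in CX1 and 2.77, 0.955 and 0.893 CPM in MAX2, MAX3 and MAX8. CX1 and MAX8 share the WKY strain, and CX1 was the line of the highest passage, 38 to 40, against 10 to 17 in the other rat lines. Pou5f1 had 163 CPM in CX1, against 6.25 to 8.32 CPM in the other rat lines, and Dnmt3l had 98.2 CPM in CX1, against 0 to 1.91 CPM. Of the other pluripotency markers measured in rat, Nanog, Sox2 and Esrrb were at 0 in every line, and Klf2 had 0.805 CPM in CX1. The part of Pou5f1 and Dnmt3l in the Sfmbt2 value was not tested. Dlk1, Usp29, Ascl2, Asb4 and Rasgrf1 had 0 counts in all 4 rat lines.

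**Figure D5:**
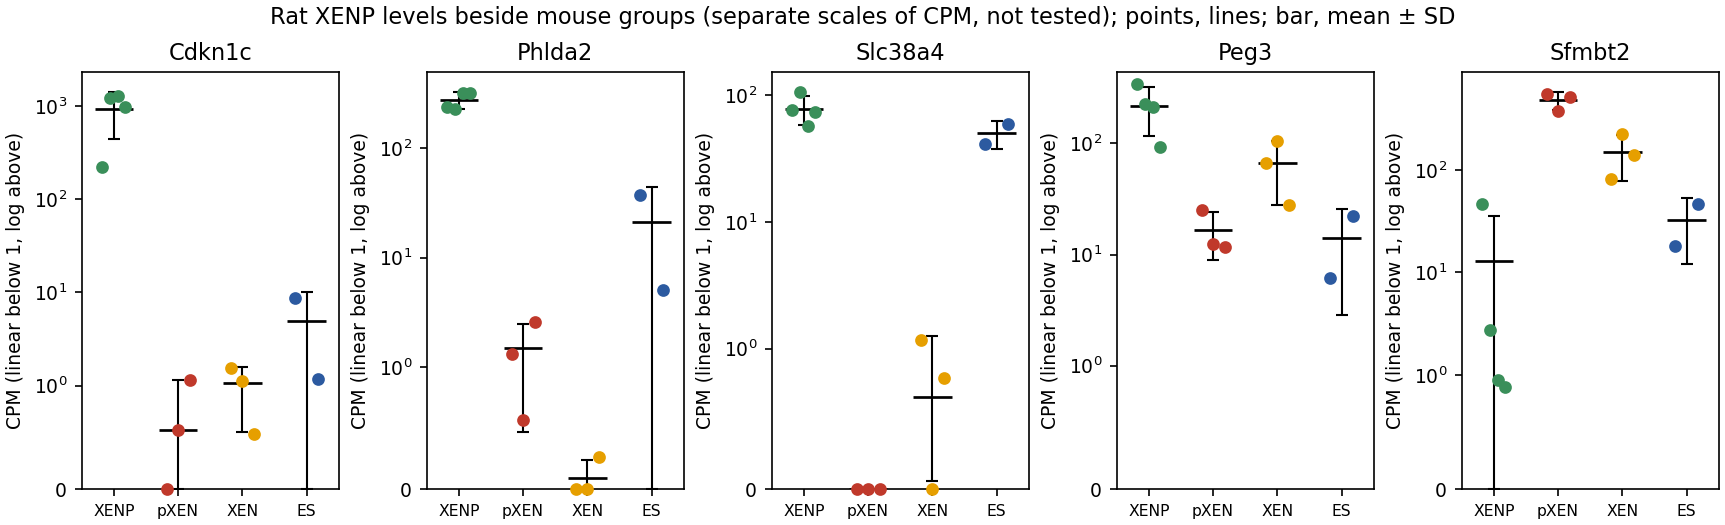
CPM of Cdkn1c, Phlda2, Slc38a4, Peg3 and Sfmbt2 in rat XENP, pXEN, XEN and ES lines, with 1 point per line, the mean as a bar and the SD as whiskers (whiskers that would pass below 0 stop there); rat and mouse CPM are on separate scales, and the axis is linear below 1 and logarithmic above. Cdkn1c lies at 224 to 1284 CPM in the rat lines and at most 1.56 CPM in pXEN and XEN, and for Sfmbt2 the rat line CX1 stands above the other rat lines.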

How the data were processed

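Counts came from RNA-seq of ribosome-depleted, strand-specific libraries of 12 lines (3 pXEN, 3 XEN, 2 ES and 4 XENP), grouped by the titles and cell types in the labels. What the authors deposited were whole-number counts for each gene. The submitters' processing notes name CASAVA 1.8.2, Trimmomatic 0.33, STAR 2.5.1, DESeq2, mm10 and rn6. The annotation behind the counts was not given in the sources used here. Tables of pXEN lines carry the name mouse XENP, while titles and cell types say pXEN. No 2 lines held identical counts.

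The reverse-strand column, with 98.9% to 99.3% of stranded counts in mouse and 99.1% to 99.2% in rat, was used. Entries for read classes (ambiguous, no feature, multimapping, unmapped) were set aside; they held 73.4% to 78.3% of mouse reads and 89.7% to 91.8% of rat reads, of which multimapping reads were 7.84% to 9.65% and 65.5% to 70.1% of all reads. Copies of a gene may have lost reads in this way.

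edgeR 4.0.16 (R 4.3.3) fitted the counts of all 8 mouse libraries together, with TMM scaling, filterByExpr (minimum count 10) and the robust quasi-likelihood test, on 10895 genes. Adjusted p is Benjamini-Hochberg over these genes, with a threshold of 0.05. The SE of a log2 fold change is its size divided by the square root of F. Mouse CPM are TMM-scaled, rat CPM are not, and both are given per line or as mean ± SD (n = 3 for pXEN and XEN, 2 for ES, 4 for rat). Lengths are merged exons of GENCODE vM21. A fold against a group at 0 is a bound at 3 counts over the group; with 1 or 2 counts an exact 95% interval is given. Floors and intervals cover counting error only. The code was checked on simulated counts.

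The 40 genes and the lists were chosen with earlier results of these data known, and classes are from general knowledge of mouse imprinting. Genes given by line were called in some comparison or averaged at least 10 CPM in a mouse group; from the other lists up to 6 called genes with the smallest adjusted p per comparison were named. Values of other genes, such as Ndn, Trappc9, Peg13, Cdkn1c, Pou5f1, and Tet3 and Airn in pXEN, were given by choice after their values were seen. Alternatives were unstranded counts, DESeq2 size factors, upper-quartile scaling, DESeq2 1.42.0, no low-count filter, Rn45s removed, 2 groups per fit, sex as a covariate and each line left out. Promoter and microRNA sequences are RefSeq's.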

Additional observations from a re-analysis of the deposited data

Results flagged for a closer look

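Sfmbt2 in the rat line CX1 stood at 46.7 CPM, far from the other 3 XENP lines (0.893 to 2.77 CPM), with a gap of 0.959 of the range; 22 genes were examined in this way in rat, and chance sets apart a line in about 1 of 20 groups. The difference of pXEN from ES and that of XEN from ES were unequal for Sfmbt2 in a test of the difference itself, by 1.69 on the log2 scale (edgeR, adjusted p = 0.0476), with all 3 pXEN lines above all 3 XEN lines. This equals the test of pXEN against XEN, and its call was lost without pXEN2, pXEN4, pXEN6, XEN1 or XEN5 (highest adjusted p 0.154), without the low-count filter, with Rn45s removed and with sex as a covariate.

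For Nnat in mouse and Usp29 in rat, the strand column that was not used held more counts than the column used. Nnat had 46 counts on the other strand over the 8 mouse lines, beside 38 on its own strand, and 6 in rat beside 48. It lies in an intron of Blcap, which is read from the opposite strand. Usp29 had 27 counts on the other strand over the rat lines (8, 7, 5 and 7 in CX1, MAX2, MAX3 and MAX8) and 0 on its own.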

How the results depend on the processing

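No paired analysis was possible because the groups compared share fewer than 2 replicate numbers. No called result changed direction in the alternatives run. Single genes that were called kept their call in 330 tests under alternatives and lost it in 54, and those not called stayed so in 828 and passed in 26. In pXEN against ES, DESeq2 called 2 paternal genes higher, and fitting 2 groups alone called 4 genes higher, 3 paternal higher and 3 paternal lower. In XEN against ES, DESeq2 called 5 paternal genes lower; no filter, 2 groups alone and sex as a covariate each called 2 genes higher, 1 of them paternal. In pXEN against XEN, unstranded counts called 2 genes (1 lower, paternal), DESeq2 called 4 (3 lower, of which 2 paternal and 1 maternal), and no filter, Rn45s removed and sex as a covariate each called 0, so 0 higher and 0 paternal higher. Leaving out each line in turn called 10 to 13 genes in pXEN against ES (2 to 3 higher, 8 to 10 lower; paternal 1 to 2 higher and 3 to 5 lower, maternal 3 to 6 lower). In XEN against ES it called 7 to 11 (1 to 4 higher, 5 to 9 lower; paternal 0 to 3 higher and 2 to 5 lower, maternal 2 to 5 lower). In pXEN against XEN it called 0 to 3 (0 to 1 higher, 0 to 3 lower; paternal 0 to 1 higher and 0 to 2 lower, maternal 0 to 1 lower). The cause was not tested. With unstranded counts 29 rat levels moved by less than their SD, and Usp29 stood at 5.97 CPM, against 0. Only 2 ES lines, and 1635626 to 2418423 counts per mouse line outside Rn45s, limit what can be shown for genes of a few counts.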
